A study of Mus musculus with 16 samples.

Results

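Keratins are the intermediate filament proteins of epithelial cells. Their filaments assemble from pairs of a type I and a type II keratin, so that each protein needs a partner of the other type. Krt8 (type II) and Krt18 (type I) are the partners of simple, single-layered epithelia, and in the mouse embryo they are first made in the trophectoderm and later in extraembryonic endoderm. Krt7 (type II) is found in simple epithelia of ducts and glands, and Krt19 (type I) in simple epithelia and in some cells of layered ones. Krt14 (type I) pairs with Krt5 in the basal cells of stratified epithelia, and Krt17 (type I) is found in basal cells of hair follicles and glands and in skin after injury. The 6 genes Krt7, Krt8, Krt14, Krt17, Krt18 and Krt19 were taken by symbol from the platform annotation of an Illumina mouse bead array, in which each has a single probe, and they were followed through 8 lines of embryonic stem cells (ESCs). They are 6 of the 16593 genes that a probe on the array names, and all 6 passed the detection filter that left 9303 genes for testing.

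All lines are Sox2-null ESCs of 129/Ola background. They carry a mouse Sox2 transgene that doxycycline represses, together with a tet transactivator and the red fluorescent protein DsRed, which is always on. In 7 of them a human SOX2 construct was added on pPBCAG-cHA-IH, a PiggyBac plasmid with hygromycin resistance, the mouse transgene was repressed with doxycycline (1 μg/mL), hygromycin (300 μg/mL) was applied, and individual clones were picked and expanded. The construct was wild-type SOX2 in SWT clones 4 and 5 and the S113 mutant (R113E) in S113 clones 4 and 5. In S95 clones 1, 2 and 4 the labels name a Sox2 95 mutant, and these clones were taken as the mutant that combines R98E with M102E, because the study profiled 3 clones of that mutant and saw no colony grow with its mutant of position 95. The label S95 is kept for them below. In the remaining line, TSS, doxycycline was left out and the mouse transgene stayed on, with no human construct named. Every line is therefore 1 clone or 1 culture on a Sox2-null background, and each was hybridized to 2 arrays, whose mean was used as the value of the line. The labels do not say whether these 2 arrays hold separate cultures.

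Levels are log2 intensities after background correction and quantile normalization, on which the lowest signal detected on an array lay near 4.6 to 4.7, so that a level close to this value is near background. Levels of different probes cannot be set against each other, and each gene is compared only with itself across lines. The median raw intensity of the 16 arrays was 100.1 to 117.2, between 48.6% and 52.5% of probes were detected, and the 2 arrays of a line correlated over genes with r between 0.9941 and 0.9976. Of 2 probes named Sox2, the brighter had a mean level of 4.83 in the 2 SWT clones (SD 0.07), 7.85 in the 2 S113 clones (SD 0.26), 5.59 in the 3 S95 clones (SD 0.66) and 6.39 in TSS. The files give no probe positions, so this reading is no check of the labels or of a construct's level. Bulk RNA does not tell apart fewer cells of a type and less RNA per cell, and this holds for every level below.

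Krt8 and Krt18 lie close together on chromosome 15 of the RefSeq annotation of GRCm38.p6, with 2 other annotated genes between them, at chr15:101996711-102004342 and chr15:102028216-102032026, 23.9 kb apart and transcribed away from each other, with Krt7 on the same chromosome at chr15:101412403-101427806. Krt19 (chr11:100140810-100145926), Krt14 (chr11:100203162-100207510) and Krt17 (chr11:100256215-100261029) lie together on chromosome 11. The build on which the probes were designed was not given in the sources used here. Windows of 250 bases before the annotated start are shown for the members on chromosome 15, whose levels were highest in S95 clones, in RefSeq sequence of GRCm38.p6 read 5′ to 3′ on the strand of the gene. The windows are chr15:102004343-102004592 on the minus strand for Krt8, chr15:102027966-102028215 on the plus strand for Krt18 and chr15:101412153-101412402 on the plus strand for Krt7. Capitals mark every match, on either strand, to 7 short motifs.
Krt8: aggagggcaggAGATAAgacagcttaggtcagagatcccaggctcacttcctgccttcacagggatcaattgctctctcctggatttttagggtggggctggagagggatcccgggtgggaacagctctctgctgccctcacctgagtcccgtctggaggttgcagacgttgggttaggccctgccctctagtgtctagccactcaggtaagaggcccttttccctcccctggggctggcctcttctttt
Krt18: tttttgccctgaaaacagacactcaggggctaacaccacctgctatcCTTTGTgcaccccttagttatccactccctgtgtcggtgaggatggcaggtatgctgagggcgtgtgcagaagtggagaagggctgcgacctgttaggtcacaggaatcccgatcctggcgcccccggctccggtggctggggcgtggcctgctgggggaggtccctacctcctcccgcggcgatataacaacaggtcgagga
Krt7: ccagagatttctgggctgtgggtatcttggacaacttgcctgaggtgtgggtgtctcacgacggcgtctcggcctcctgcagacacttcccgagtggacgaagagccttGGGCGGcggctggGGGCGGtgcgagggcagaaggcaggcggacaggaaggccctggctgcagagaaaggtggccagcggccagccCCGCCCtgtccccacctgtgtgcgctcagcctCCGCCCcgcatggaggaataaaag
The Krt8 window held a single match to the GATA motif AGATAA, 239 bases before the start, and 9.99% of 32851 annotated promoter windows of this length held such a match. The Krt18 window held a single match to the SOX core CNTTGT, 203 bases before the start, which 36.3% of windows held. In the Krt7 window the motif GGGCGG of SP and KLF factors was found 4 times, at 141, 128, 56 and 24 bases before the start, and 32.7% of windows held it at least once. None of these 3 windows held the TATA box TATAAA (12.4% of windows), the octamer ATGNNAAT (11%), the AP-1 motif TGANTCA (6.75%) or the TEAD motif GGAATG (12.6%). A match is a description of the letters, and no binding data were analysed. The RefSeq table has a window for Krt14 that lies inside the annotated span of the gene and was not used. Krt17 and Krt19 are given by name and position only.

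The comparison of S95 with SWT asks whether keratin genes differ when ESCs depend on this mutant in place of wild-type SOX2. Krt8, Krt18, Krt19, Krt7 and Krt14 were higher in the 3 S95 clones than in the 2 SWT clones and Krt17 was lower, and all 6 passed limma's test at a Benjamini-Hochberg adjusted p under 0.05 over the 9303 genes. Among all genes tested, 11% passed as higher and 12.1% as lower. This split depended on the scaling: it was 1022 higher to 1123 lower here, and 1490 to 641 when each array was shifted to a common median over all probes, which moved the median difference of all genes to 0.10. The median log2 difference of the 6 genes was 3.45, beside -0.01 over all genes. The clones of the groups did not overlap for any of the 6, which was also so for 60.0% of all genes.

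Krt8, the type II keratin of simple epithelia, read 6.79 in SWT clone 4 and 8.21 in SWT clone 5 (log2 level). It read 9.24 and 10.39 in S113 clones 4 and 5, 11.38, 12.55 and 12.05 in S95 clones 1, 2 and 4, and 9.66 in TSS. Every S95 clone lay above every other line, both S113 clones and TSS lay above both SWT clones, and the SWT clones themselves were 1.41 apart. S95 exceeded SWT by 4.49 on the log2 scale, a 22.5-fold difference (standard error 0.55, adjusted p = 0.0048 from limma).

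Krt18, the type I partner of Krt8, read 5.76 and 4.87 in SWT clones 4 and 5. It read 7.17 and 7.58 in the S113 clones, 9.63, 11.24 and 10.72 in S95 clones 1, 2 and 4, and 7.90 in TSS. The groups kept the order seen for Krt8 except that TSS lay above both S113 clones, and again no S95 clone overlapped another line. The difference between S95 and SWT was 5.21 on the log2 scale or 37.1-fold (adjusted p = 0.0025 from limma, standard error 0.49), and no other of the 9303 genes had a larger one. Krt18 was near background in SWT clone 5, so the size and this rank depend on the background correction and on that clone. With a normexp background and offset 50, Krt8 differed by 4.163 and Krt18 by 4.159. Without SWT clone 5 the differences were 5.20 for Krt8 and 4.77 for Krt18. Krt8 and Krt18 were highest in the same clone, S95 clone 2, and lowest among S95 clones in clone 1.

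Krt19 read 4.89 and 4.38 in SWT clones 4 and 5, where it was detected on 2 of 4 arrays, both of clone 4. It read 6.11 and 5.46 in the S113 clones, 6.67, 9.43 and 8.19 in S95 clones 1, 2 and 4, and 5.26 in TSS. The S95 clones spread over 2.76 on the log2 scale, more widely than for any other member, and clone 1 lay only 0.56 above S113 clone 4. S95 was 3.46 higher than SWT (standard error 0.73, adjusted p = 0.021 from limma).

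Krt7 read 5.53 and 5.19 in SWT clones 4 and 5, 5.82 and 5.22 in S113 clones 4 and 5, 7.0, 6.86 and 8.10 in S95 clones 1, 2 and 4, and 5.96 in TSS. Its highest clone was S95 clone 4 rather than clone 2, and the SWT and S113 clones overlapped. S95 was 1.96 higher than SWT (standard error 0.40, adjusted p = 0.018 from limma).

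Krt14, the type I keratin of basal cells, was close to background outside the S95 group. It read 4.45 and 4.57 in SWT clones 4 and 5, 4.86 and 4.65 in the S113 clones and 5.15 in TSS, and it was detected on 1 of 4 SWT arrays and 3 of 4 S113 arrays. In S95 clones 1, 2 and 4 it read 7.03, 7.96 and 8.89 and was detected on all 6 arrays. The mean was 3.45 higher in S95 than in SWT (standard error 0.48, adjusted p = 0.0072 from limma). For Krt14 and Krt19, whose SWT signal was only in part above background, this difference depends on the background correction and on the offset added to it.

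Krt17 went the other way. It read 8.31 and 8.87 in SWT clones 4 and 5, the highest of any line, 5.84 and 6.17 in the S113 clones, 7.35, 6.09 and 7.42 in S95 clones 1, 2 and 4, and 7.14 in TSS. S95 clones 1 and 4 lay close to TSS, while clone 2 lay within the range of the S113 clones. Krt17 fell by 1.63 on the log2 scale from SWT to S95 (standard error 0.42, adjusted p = 0.036 from limma).

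**Figure D1:**
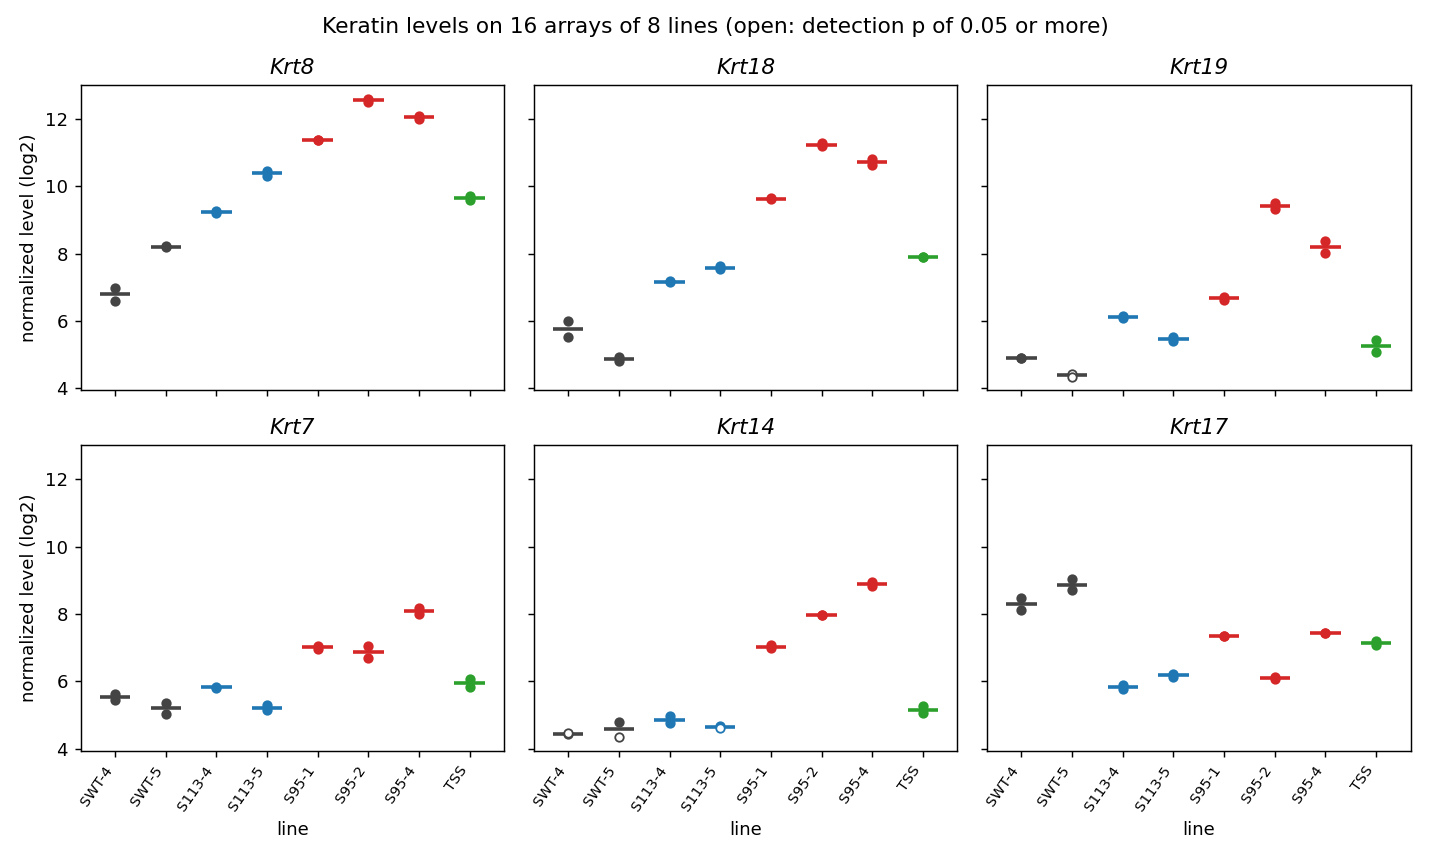
Normalized level (log2, y axis) of the 6 keratin genes in the 8 lines (x axis). Points are the 2 arrays of a line, open where the probe was not detected, and bars are their mean. The 3 S95 clones lie above every other line for 5 genes, and the 2 SWT clones lie highest for Krt17.

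The number of keratin genes passing between S95 and SWT depended on the SWT clones. Without SWT clone 4 or without SWT clone 5, 2 of the 6 passed, Krt8 and Krt18, while 253 and 270 of all genes passed in these fits. Krt17 and Krt19 did not pass without S95 clone 4 (adjusted p = 0.052 and 0.058 from limma), and Krt17 did not pass without S113 clone 4 or without S113 clone 5, which enter the shared estimate of the spread (0.064 for each). Krt17 also missed the threshold in the deposited log2 values (adjusted p = 0.054 from limma) and with the median shift over all probes (a difference of -1.44, adjusted p = 0.062), and Krt17 and Krt19 missed it with no detection filter (0.081 and 0.052). In earlier results of these data a stretch of chromosome read lower in both S95 clone 1 and S95 clone 4, so that they may not be independent. With their mean entered as 1 line all 6 genes passed, where 1579 of all 9303 genes did, in place of 2145.

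S113 clones were compared with the same SWT clones. No keratin gene passed, and 0% of all genes tested did (smallest adjusted p = 0.071 from limma), while 863 genes, or 9.28%, had an unadjusted p under 0.05 and 3 of the 6 keratin genes were among them. Krt8 differed by 2.31 (95% confidence interval 0.88 to 3.75, adjusted p = 0.31 from limma) and Krt18 by 2.06 (0.78 to 3.34, adjusted p = 0.31). Krt17 was 2.58 lower in S113 than in SWT by the difference of means (interval -3.68 to -1.48, adjusted p = 0.17 from limma), and a single gene of the 9303 had a more negative difference. Krt19 differed by 1.15 (interval -0.75 to 3.04), Krt14 by 0.25 (-1.01 to 1.50) and Krt7 by 0.16 (-0.87 to 1.19), with adjusted p of 0.73, 0.95 and 0.95 from limma. The S113 and SWT clones did not overlap for any of the 6 except Krt7, against 51.4% of all genes without overlap. Without S95 clone 2, Krt17 passed (adjusted p = 0.012 from limma), and 147 genes passed in all.

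The mutants were compared with each other directly. Krt18, Krt14 and Krt7 were higher in S95 than in S113 and passed, where 4.17% of all genes passed as higher. The log2 differences were 3.15 for Krt18 (standard error 0.49, adjusted p = 0.020 from limma), 3.21 for Krt14 (standard error 0.48, adjusted p = 0.018) and 1.80 for Krt7 (standard error 0.40, adjusted p = 0.041). Krt8 and Krt19 differed by 2.18 (interval 0.87 to 3.49, adjusted p = 0.056 from limma) and 2.31 (interval 0.59 to 4.04, adjusted p = 0.088). Krt17 differed by 0.95 (interval -0.06 to 1.95, adjusted p = 0.17 from limma), and it was the only member whose S95 and S113 clones overlapped, where 53.9% of all genes had no overlap. Without S113 clone 4 or S113 clone 5 a single S113 clone was left, and the calls of Krt18, Krt14 and Krt7 were lost. Calls over all genes fell as well. The log2 differences in these fits were 2.95 and 3.36 for Krt18, 3.31 and 3.10 for Krt14, and 2.10 and 1.50 for Krt7. Without S95 clone 4 only Krt14 passed, and without S95 clone 1 Krt8 and Krt19 passed as well, giving 5 of 6. Of all genes tested, 115 of 9117 passed in the first of these 2 fits and 973 of 9205 in the second, in place of 861 of 9303. Krt7 did not pass without SWT clone 4 or 5 (adjusted p = 0.086 from limma for each), nor with S95 clones 1 and 4 as 1 line (0.053), with no detection filter (0.084) or with a normexp background (0.061), and Krt17 passed without S95 clone 2 (0.0094). With the median shift over all probes Krt8 passed too (adjusted p = 0.042 from limma), giving 4 of 6.

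TSS, a single line assumed to vary like the others, was compared with SWT, and no keratin gene passed, where 0% of all genes tested did. An unadjusted p under 0.05 was found for 914 genes, or 9.82%, and for Krt18, Krt8 and Krt17. Krt18 differed by 2.58 (interval 1.02 to 4.15, adjusted p = 0.38 from limma), Krt8 by 2.16 (0.40 to 3.92, adjusted p = 0.46) and Krt17 by -1.45 (-2.80 to -0.10, adjusted p = 0.48). The other 3 differed by 0.59 to 0.65. The TSS level lay outside the range of the SWT clones for all 6 genes, as it did for 80.1% of all genes. All comparisons with SWT share the same 2 SWT clones, so their values are given side by side and not as independent evidence.

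**Figure D2:**
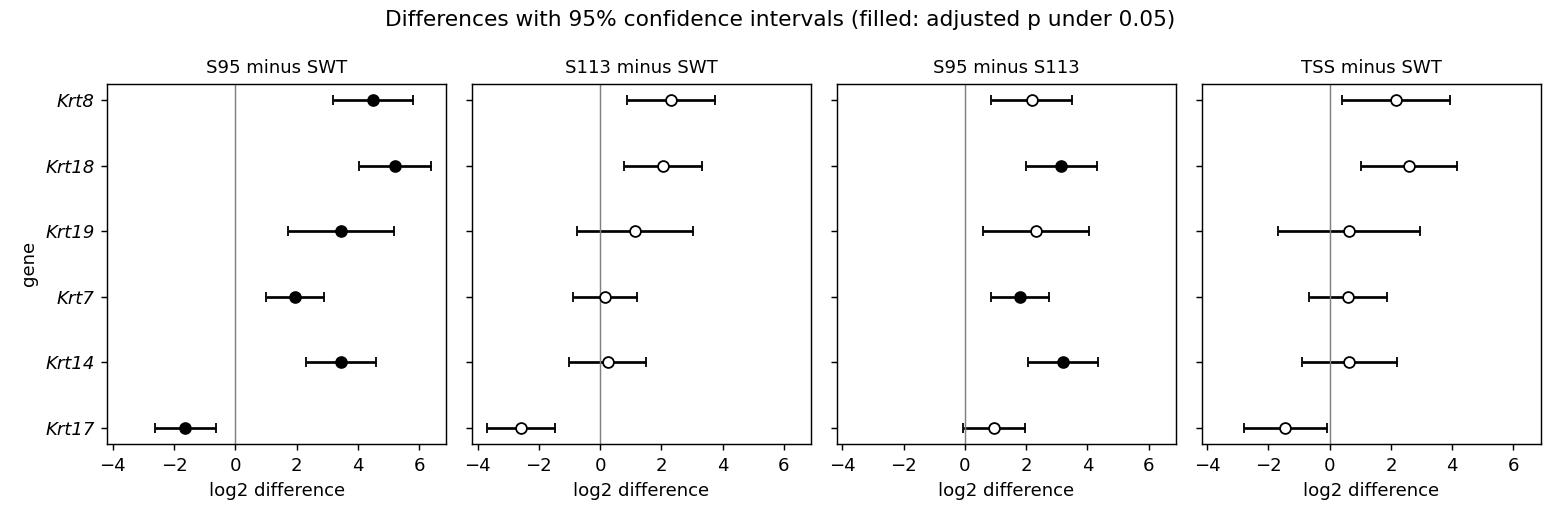
Log2 difference (x axis) of each keratin gene (y axis) in the 4 comparisons, with 95% confidence intervals from limma, filled where the adjusted p was under 0.05. All 6 genes are filled for S95 minus SWT, none for S113 minus SWT or TSS minus SWT, and 3 for S95 minus S113.

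Across the 8 lines, which include replicate clones of a group, Krt8 and Krt18 correlated at r = 0.94 and Krt7 and Krt14 at r = 0.96 (Pearson, a description over 8 line means). Krt17 correlated with the other 5 between -0.54 and -0.14. The genes most like each member over the same 8 means were Cited2 (r = 0.990), Slc25a10 and Folr1 for Krt8, Klf6 (r = 0.994), Acta1 and Scamp2 for Krt18, Tprgl (r = 0.998), Eps8l2 and Tor2a for Krt19, Acsl3 (r = 0.994), Jaml and Slc16a6 for Krt7, and Fam83g (r = 0.996), Atp6v1a and Mvp for Krt14. Krt17 was matched less closely, by Prpf18 (r = 0.964), Naa16 and Nrn1l. At least 31 genes reached r over 0.95 with each of the 5 keratin genes that were higher in S95, against 1 for Krt17. The 8 points fall into 4 groups, so genes that share a difference between groups correlate highly.

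Neighbouring genes gave the following values. Within 1000 kb of Krt14, 29 genes other than the members were tested, of which 2 were higher and 4 lower in S95 than in SWT. Krt20, among the higher, passed the detection filter only through S95 clones, so that it could not be lower. Within 1000 kb of Krt8, 2 of 24 were higher and 2 lower. Over all genes tested, 11% were higher and 12.1% lower. The tested gene next to Krt18 on the other side from Krt8, Eif4b, an initiation factor of translation, differed by -0.52 (adjusted p = 0.12 from limma). The tested genes on either side of Krt7, Atg101 and Krt82, differed by -0.11 and -0.27 (adjusted p = 0.57 and 0.18 from limma). Krt17 and its neighbour Krt42, a further type I keratin gene 1.85 kb away, were both lower in S95 than in SWT. Krt42 read 9.33 and 10.28 in SWT clones 4 and 5, 7.11 and 7.20 in the S113 clones, 7.22, 4.55 and 6.79 in S95 clones 1, 2 and 4, and 8.43 in TSS. Its lowest line, S95 clone 2, is also the lowest S95 clone for Krt17. Krt42 fell by 3.62 on the log2 scale from SWT to S95 (standard error 0.76, adjusted p = 0.021 from limma). It was detected on 4 of 6 S95 arrays and lay at background in S95 clone 2, so the size of this fall depends on the background correction. Type I keratins are alike in sequence and the probe sequences were not given in the sources used here, so signal shared between the probes of Krt14, Krt17 and Krt42 was not tested.

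**Figure D3:**
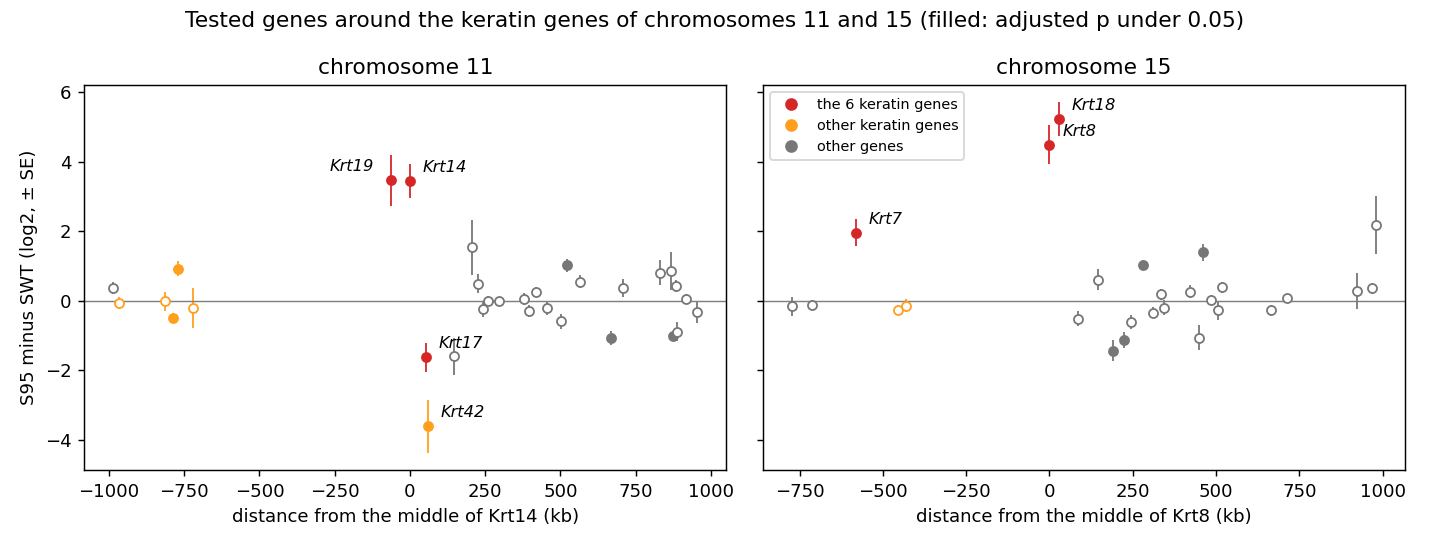
Log2 difference of S95 minus SWT (y axis, with standard error) for every tested gene within 1000 kb of the middle of Krt14 on chromosome 11 and of Krt8 on chromosome 15 (x axis, kb). Krt8 and Krt18 stand at 4.49 and 5.21, and Krt17 and Krt42 at -1.63 and -3.62. The median of the tested genes other than the members is -0.02 around Krt14 and -0.13 around Krt8. Single neighbours lie further from 0, such as Hoxc9 at 2.18, P3h4 at 1.53 and Hap1 at -1.60.

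Of 41 other genes on the array named Krt and a number, 8 passed detection. The counts of this paragraph stand beside 11% of all genes tested that were higher in S95 than in SWT and 12.1% that were lower. Krt20, a keratin of gut epithelium, was not above background on any SWT array, and by limma's test (adjusted p = 0.031) S95 was higher, by at least 1.54-fold. This bound sets the S95 mean against the lowest detected signal of each SWT array, and Krt20 passed the detection filter only through S95 clones, so that it could not be lower. Its difference passed in 13 of 20 alternative settings. Krt42 and Krt12, a keratin of the cornea, were lower, Krt12 by a difference of -0.49 (adjusted p = 0.046 from limma) that passed in 8 of 20 alternative settings. The median of the 8 was -0.18. Krt5, the type II partner of Krt14 in basal cells, was detected on 0 of 16 arrays, and so was Trp63, the transcription factor that defines basal cells. Of 14 genes of desmosomes and keratin linkers on the array, 8 were tested and 2 were higher in S95 than in SWT, Plec (1.49, adjusted p = 0.022 from limma), which links intermediate filaments to junctions, and Eppk1 (1.22, adjusted p = 0.044), which binds keratin filaments. None was lower, and the median of the 8 was 0.86. The desmosomal gene Jup was detected on 2 of 16 arrays. Of 11 other intermediate filament genes tested, 4 were higher and 2 lower. Lmna, which encodes the A-type lamins of the nucleus, was higher by 2.99 (adjusted p = 0.0077 from limma), and Synm, which encodes synemin, fell by 1.78 (adjusted p = 0.0049). Vim, which encodes the vimentin of mesenchymal cells, fell by 0.79 (adjusted p = 0.034 from limma). In S113 minus SWT none of the genes of these lists passed, where 0% of all genes tested did.

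Marker lists of other cell types were read beside the keratin genes, since keratins mark several of the cell types that ESCs can form. Their counts stand beside 11% of all genes tested that were higher in S95 than in SWT and 12.1% that were lower. Of 8 tested basal epithelium markers, 2 were higher in S95 than in SWT, among them Col17a1, a collagen of hemidesmosomes (at least 2.27-fold, since no SWT array read it above background, adjusted p = 0.0070 from limma), and 3 were lower, among them the epidermal transcription factor Grhl3, which fell by 1.36 (adjusted p = 0.017). Their summed level (linear normalized intensity) was 536 to 609 in SWT, 445 to 524 in S113 and 452 to 668 in S95, which overlapped both, and 666 in TSS. Of 13 trophectoderm markers on the array, 9 were tested. Among these, 5 were higher, with Plac1, detected on 1 of 4 SWT arrays, at 3.80 (adjusted p = 0.0068 from limma) and Tead4 at 1.78 (adjusted p = 0.0021). Tfap2c had a mean level of 11.19 in SWT and 10.19 in S95 (adjusted p = 0.22 from limma). Elf5, Hand1 and Tpbpa were detected on 0 of 16 arrays and Esx1 on 3 of 16, and these were not tested. Cdx2, which defines the trophectoderm, was not above background on any SWT array and was at least 1.67-fold higher in S95 (adjusted p = 0.030 from limma). It was not particular to S95, reading 5.09, 5.36 and 5.95 in S95 clones 1, 2 and 4 and 5.94 in TSS. In S113 clones 4 and 5 it read 5.25 and 4.84. The summed level of the 9 trophectoderm markers was 2174 to 2748 in SWT, 1809 to 1850 in S113, 1187 to 3736 in S95 and 3562 in TSS, but Tfap2c alone made up 42.8% to 95.6% of it. Without Tfap2c the sum of the other 8 was 120.2 to 131.4 in SWT, 302.6 to 363.5 in S113, 679 to 1460 in S95 and 322 in TSS. Such sums add unlike probes and are set only against the same sum in another line. Of 16 tested extraembryonic endoderm markers, 11 were higher and none lower, with Dab2, an endocytic adaptor of these cells, at 5.18 (adjusted p = 0.0019 from limma), Gata6 at 3.38 (adjusted p = 0.020) and Sox17 at 4.15 (adjusted p = 0.023), both transcription factors of the lineage. Ttr, Apoa1, Foxa2 and Gata4 passed the detection filter only through S95 clones, so that they could not be lower, and they are not among the 11. They enter the sum and the line medians of this list. The summed level of the 16 was 1697 to 3887 in SWT, 4916 to 19267 in S113, 29701 to 69493 in S95 and 3537 in TSS, with no overlap between S95 and any other line. In S95 clone 2 the brightest of the 16 were Col4a1, Lama1, Sparc and Col4a2, which weighed most in this sum. Of 6 tested fibroblast markers, 1 was higher, Acta2 (1.92, adjusted p = 0.038 from limma), and Col1a1 differed by 0.60 (adjusted p = 0.12). Of 8 undifferentiated ESC markers, 3 were lower, and Pou5f1 differed by -0.73 (adjusted p = 0.31 from limma), while their summed level was 33861 to 35216 in SWT and 17097 to 26723 in S95. Dppa5a, the brightest of the 8, weighed most in this sum and itself differed by -0.25 (adjusted p = 0.29 from limma). The part of any of these cell types in the keratin levels was not tested.

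The lists and the keratin genes can be read line by line. The median difference of the extraembryonic endoderm markers from the SWT mean was 3.18, 4.30 and 3.19 in S95 clones 1, 2 and 4, 0.59 and 2.26 in S113 clones 4 and 5 and 0.29 in TSS. Krt8 lay 3.88, 5.05 and 4.55 above the SWT mean in the same S95 clones, 1.74 and 2.89 in the S113 clones and 2.16 in TSS, and both it and the list were highest in S95 clone 2. That clone also lay furthest from the SWT mean over all genes, at a root mean square of 1.11 beside 0.75 and 0.81 in S95 clones 1 and 4. In TSS, Krt18 lay 2.58 above the SWT mean while the endoderm list was near its SWT level, and the difference between TSS and S113 was not tested. Krt14 was 2.52, 3.45 and 4.38 above the SWT mean in S95 clones 1, 2 and 4, the order of Krt14 among these clones being different from that of Krt8 and of the endoderm list. The median of the trophectoderm list was 1.28, 1.02 and 1.61 in these S95 clones, 0.66 and 0.50 in S113 clones 4 and 5 and 0.42 in TSS. Krt7, at 1.64, 1.50 and 2.74 in the S95 clones, had the same order among them.

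**Figure D4:**
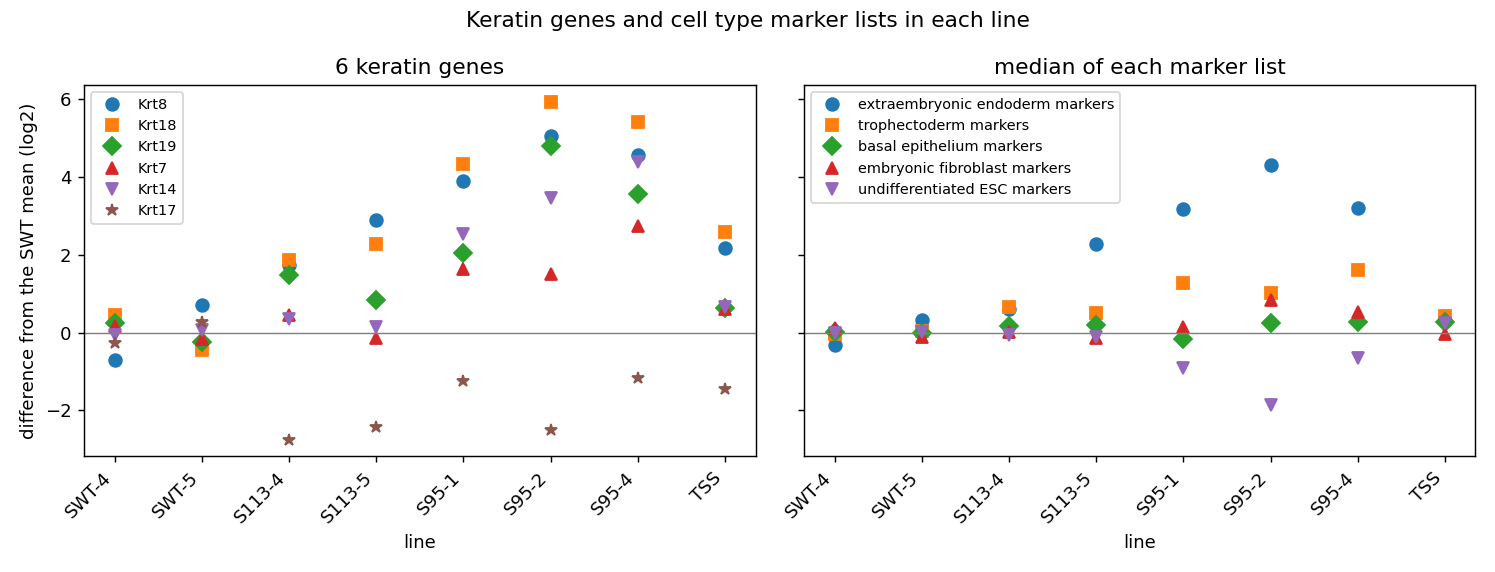
Log2 difference from the SWT mean (y axis) in each line (x axis) for the 6 keratin genes on the left and for the median of each marker list on the right. In S95 clone 2, Krt18 lies 5.92 above the SWT mean and the extraembryonic endoderm list 4.30 above it, while the basal epithelium list lies 0.25 above it.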

How the data were processed

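RNA of 8 Sox2-null ESC lines was measured on 16 Illumina mouse bead arrays. The authors deposited probe intensities that were not normalized, and gave each of the 25697 probes a deposited detection p-value. The authors also deposited log2 values that were background corrected and quantile normalized. Per the labels, BeadStudio 3.2, RMA and lumi were used, with no step assigned to each. Of the probes, 23978 had 1 gene symbol, 0 had several and 1719 had none, and 23962 were matched by Entrez identifier to RefSeq genes of GRCm38.p6.

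Normalization used neqc (limma 3.58.1, R 4.3.3; background from detection p-values, offset 16, log2, quantile). A log2 difference of a dim gene is understated by the offset. A probe was kept if 2 or more lines had a detection p under 0.05 on both of their arrays (12673 probes), and a gene was read from its brightest probe. All 6 members would have been kept without the S95 clones. The 2 arrays of a line were averaged and all 8 lines entered 1 limma fit (lmFit, eBayes) with group means. Tests were two-sided, with Benjamini-Hochberg adjustment over 9303 genes and a threshold of 0.05. With 2 or 3 clones a group, each p-value sets a difference of group means against 1 spread. This spread is estimated between the clones of SWT, S113 and S95 together and moderated over genes by eBayes. The number of lines limits the precision.

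Named genes were all members, the nearest tested neighbours, the 3 most correlated genes of each member, and genes passing in other keratin, junction, filament and marker lists (at most 4 a list, by p), with defining markers. The members and lists were chosen with earlier results of these data known. The fit was tested on simulated data. Alternatives to these choices were normexp with offset 50, use of the deposited log2 values, a median shift of each array over all probes, no detection filter, a detection p under 0.01, the mean of probes, all 16 arrays entered singly (as independent samples, or with clone as random block, the latter also with a replicate block), robust eBayes with a trend, leaving out TSS, S95 clones 1 and 4 as 1 line, and each clone left out. A median shift over the probes detected on all arrays was added after seeing the data, once the shift over all probes had been seen to change calls.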

Additional observations from a re-analysis of the deposited data

How the results depend on the processing

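Over 20 alternatives and 24 differences (6 keratin genes in 4 comparisons), 414 of 474 values kept the direction and the side of the threshold, 29 lost a call, 29 gained one and 2 changed sign. Krt8 and Krt18 passed between S95 and SWT in all 20, with differences of 3.79 to 5.20 and 4.16 to 6.13. Krt14 and Krt7 passed in 18, Krt19 in 16 and Krt17 in 12. The changes of sign were Krt7 in S113 minus SWT, at -0.14 without S113 clone 4 and -0.01 without SWT clone 5, within a range of -0.14 to 0.46 over the clones left out.

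With each clone left out in turn, the count of keratin genes passing ran from 2 to 6 for S95 minus SWT, 0 to 1 for S113 minus SWT, and 0 to 5 for S95 minus S113, and was 0 for TSS minus SWT. These fits hold fewer lines. With 16 arrays and the clone as a random block, 3 passed for S113 minus SWT, 6 for S95 minus S113 and 2 for TSS minus SWT, and with a replicate block added 3, 6 and 1. Of all 9303 genes, 218, 2252 and 84 passed in these comparisons with the clone block. With the replicate block added, 178, 2145 and 66 did. With arrays as independent samples the counts were 3, 6 and 3, beside 1104, 4595 and 1207 of all 9303 genes. These 3 fits count arrays of 1 line as further samples.

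A median shift of each array over all probes left 5 keratin genes passing for S95 minus SWT (Krt17 lost, adjusted p = 0.062 from limma) and 4 for S95 minus S113 (Krt8 gained, adjusted p = 0.042), and the calls over all genes became 1490 higher to 641 lower and 627 to 325, in place of 1022 to 1123 and 388 to 473. The shift over probes detected on all arrays, chosen after seeing the data and these changes, gave 6 and 3 keratin genes and splits of 937 to 1376 and 415 to 512. The cause was not tested.

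Array numbers share only a number: differences between arrays 1 and 2 correlated between lines from -0.19 to 0.22 (median 0.00, over 0.1 in 4 of 28 pairs of lines). The replicate block gave 6 passing for S95 minus SWT, as without it. Without SWT clone 4 or 5, genes passing between S95 and SWT numbered 253 and 270 in place of 2145. Signal near background limits Krt14 and Krt19 in SWT, where the difference from S95 ran from 2.18 to 5.27 and from 2.28 to 5.06. Krt18 was near background in SWT clone 5.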
